A study of Homo sapiens with 18 samples.

Results

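The genes described here are 34 genes of cholesterol and fatty acid synthesis and of the machinery that controls them, taken by symbol from a table of 27781 genes. They were grouped by role into 8 genes of the mevalonate and isoprenoid steps, 11 of the squalene and sterol steps, 5 of SREBP control, 3 of sterol transport and liver X receptor (LXR) response, and 7 of fatty acid synthesis and desaturation. RNA came from K562, an established human chronic myeloid leukemia line, grown in medium with fetal bovine serum. Cells of the knockdown group received antisense gapmers directed at circPCMTD1, a circular RNA made from the PCMTD1 gene, at the junction where its ends are spliced together, and control cells received scrambled gapmers. Both groups were transfected and were collected after 48 hours, and no untransfected cells were analysed here. The protocols in the labels name gapmers, while the sample descriptions name siRNA, and the wording of the protocols is followed here. Gapmers are short antisense oligonucleotides that direct RNase H to the RNA they pair with. Each group had 3 biological replicates of 3 technical libraries, and the libraries of a replicate, sharing the first number in their names, were summed. The labels do not say whether biological replicates were separate cultures, so p-values measure the spread between these samples, which may be technical. The consensus correlation of technical libraries of the same replicate was 0.0761 (limma). Libraries of a replicate were thus little more alike than libraries of different replicates in the same group.

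Cells build cholesterol from acetyl-CoA through mevalonate, farnesyl diphosphate, squalene and lanosterol, and they build fatty acids from the same precursor through malonyl-CoA. Both routes are switched on by the SREBP transcription factors, which are made as membrane proteins of the endoplasmic reticulum, escorted by SCAP to the Golgi when sterols are scarce, cleaved there and sent to the nucleus. INSIG proteins hold SCAP back when sterols are plentiful. SREBF2 is known mainly for sterol synthesis genes and SREBF1 for fatty acid synthesis genes, and the oxysterol receptors LXR act on cholesterol export and on SREBF1 itself.

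Promoter sequences are shown first because these genes are commonly described as sharing a control sequence. The 250 bases before each annotated start (RefSeq, GRCh38.p14) were searched for the sterol regulatory element (the first run of capitals in the SREBF2 sequence), the CCAAT box CCAAT, the GC box GGGCGG and the E-box CACGTG, on both strands, and in these members no match of one motif overlapped a match of another. A window was found for 30 of the 34 genes, the others being ACAT2, FASN, FDFT1 and SQLE. The last 150 bases before the start are given for the 2 genes with the largest changes among the fatty acid enzymes (FADS1, ELOVL6), for 2 raised genes of the sterol route (HMGCS1, TM7SF2) and for the control genes INSIG1 and SREBF2. Each reads from 5′ to 3′ towards the start, and capitals mark the matches. Where a gene had several annotated starts, the window listed first is printed, while the motif counts cover all its windows. HMGCS1 had another window, with GC boxes at -127 and -8 from its start and no CCAAT box.
FADS1 (chr11:61817004-61817153, minus strand): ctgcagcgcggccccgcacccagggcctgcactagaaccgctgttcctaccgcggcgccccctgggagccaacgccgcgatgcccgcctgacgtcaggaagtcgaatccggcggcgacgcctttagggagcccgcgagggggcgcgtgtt
ELOVL6 (chr4:110198616-110198765, minus strand): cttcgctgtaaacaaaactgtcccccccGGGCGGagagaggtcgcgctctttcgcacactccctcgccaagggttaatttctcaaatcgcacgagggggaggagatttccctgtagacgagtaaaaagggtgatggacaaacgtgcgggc
HMGCS1 (chr5:43313413-43313562, minus strand): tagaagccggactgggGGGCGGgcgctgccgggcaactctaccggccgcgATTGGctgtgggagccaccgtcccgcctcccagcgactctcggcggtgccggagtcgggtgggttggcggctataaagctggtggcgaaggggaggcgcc
TM7SF2 (chr11:65111722-65111871, plus strand): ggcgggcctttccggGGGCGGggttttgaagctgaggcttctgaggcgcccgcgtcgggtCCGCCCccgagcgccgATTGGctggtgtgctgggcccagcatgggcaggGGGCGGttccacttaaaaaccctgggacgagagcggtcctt
INSIG1 (chr7:155297728-155297877, plus strand): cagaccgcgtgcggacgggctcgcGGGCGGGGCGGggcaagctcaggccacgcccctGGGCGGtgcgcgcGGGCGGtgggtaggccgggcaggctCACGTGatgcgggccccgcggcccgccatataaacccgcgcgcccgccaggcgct
SREBF2 (chr22:41832955-41833104, plus strand): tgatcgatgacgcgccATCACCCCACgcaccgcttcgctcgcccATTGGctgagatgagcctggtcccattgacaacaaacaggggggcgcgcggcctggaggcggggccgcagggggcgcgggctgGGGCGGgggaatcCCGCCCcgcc

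The sterol regulatory element in these exact letters was found in 1 member, SREBF2, at 134 bases before the start, and in 0.0434% of tested genes with a window. CCAAT boxes were found in 21 of 30 members (70.0%), against 41.2% of the 11523 tested genes with a window, and GC boxes in 29 members (96.7%), against 71.1%. E-boxes were found in 4 members (13.3%), against 10.7%, among them INSIG1. Among the 11 genes with a window that rose in knockdown cells, 7 had a CCAAT box, and among the other 19 the number was 14. Genes with several windows had more bases searched, and the number of windows per gene is not given here for members or for tested genes. A match is a description of letters and not a measured binding site.

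The libraries held 19118533 to 29432699 counts and the summed samples 63851576 to 76087774. PCMTD1, the gene that hosts the targeted circle, lay at 20.03, 19.8 and 21.9 CPM (counts scaled to library size) in scrambled replicates 1 to 3 and at 12.6, 11.7 and 12.5 CPM in knockdown replicates. All 3 knockdown values lay below all scrambled ones, and its log2 fold change was -0.74 (SE 0.052, adjusted p = 7.57e-10 by the edgeR quasi-likelihood test with Benjamini-Hochberg adjustment), although gene-level counts mix circular and linear RNA. In bulk samples such as these, fewer cells with a transcript and less of it per cell cannot be told apart. All 9 erythroid markers of K562 were present, with HBG1, a fetal globin gene, at 3558 to 3918 CPM. The 9 summed to 12407.5 to 12656 CPM in scrambled and to 12904.1 to 13767.5 CPM in knockdown samples. The labels call the cells lymphoblasts, while 6 lymphoid markers summed to 4.88 to 5.49 CPM in scrambled and 7.44 to 7.57 CPM in knockdown samples, most of it CD3D, with the B cell gene MS4A1 at 0. Of 4 monocyte markers LYZ made up nearly all of 36.3 to 38.2 CPM in scrambled and 45.97 to 46.98 CPM in knockdown samples, and CSF1R lay at 0.0992 CPM or less and MARCO at 0. The part of these genes' differences in the results that follow was not tested. Abundance deviated most with transcript GC content in knockdown libraries 3_2 and 3_3 (rank correlations -0.45 and -0.52, against -0.353 to 0.353 in the other 16), so calls that change without them are given both ways.

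Most fatty acid synthesis genes and some sterol synthesis genes rose by small amounts in knockdown cells, and the fatty acid enzymes FADS1 and ELOVL6 rose most. Of the 34 members, all of which passed the count filter, 13 rose and 0 fell by edgeR with an adjusted p below 0.05, while 11.1% of the 15678 genes tested rose and 7.49% fell. At an unadjusted p below 0.05 in edgeR, 18 members were higher and 2 were lower, PMVK and SREBF2. The shares of all genes at that threshold are not given here. DESeq2 called 13 members raised and 1 lowered (SREBF2), against 8.9% and 7.18% of all genes. The 13 raised members made up 38.2% of the set. Their median log2 fold change was 0.14, and that of all raised genes in the table was 0.24. Over all 34 members the median log2 fold change was 0.08, and it was 0.002 over all genes tested. The values of all 3 knockdown replicates lay above all scrambled ones in 15 members and below in 3, against backgrounds of 18.1% and 16.5% of tested genes.

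**Figure D1:**
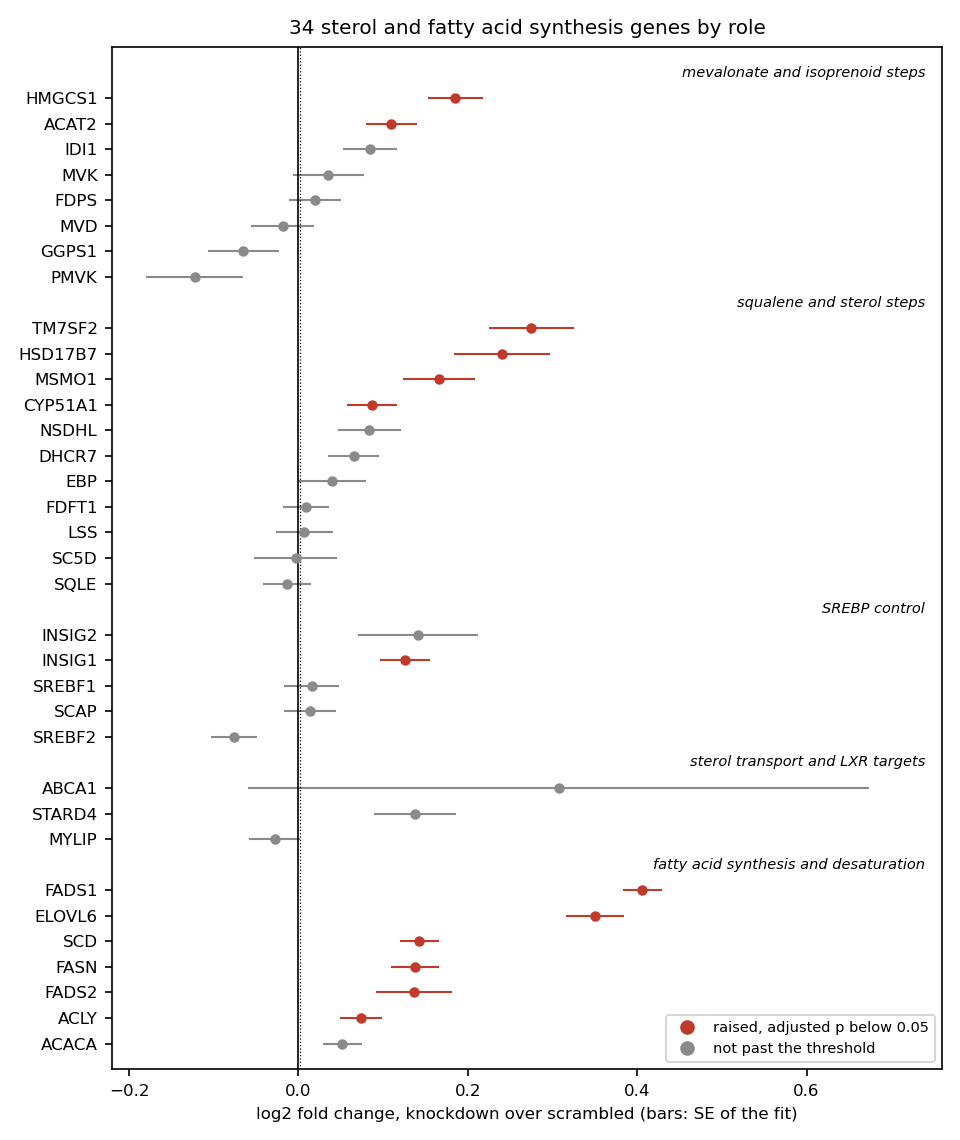
Log2 fold change of each of the 34 genes, knockdown over scrambled, grouped by role, with the SE of the fit as bars and the median of all tested genes as a dotted line. Red genes passed an adjusted p of 0.05: 6 of the 7 fatty acid genes did, and 1 of the 5 SREBP control genes.

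The fatty acid group had 6 of its 7 members raised, against 11.1% of all genes. FADS1, the delta-5 desaturase of polyunsaturated fatty acid synthesis, lay at 457, 447 and 460 CPM in scrambled replicates 1 to 3 and at 600.2, 599 and 608 CPM in knockdown replicates. The groups were far apart, and all 9 knockdown libraries (585 to 620 CPM) lay above all 9 scrambled ones (442 to 462 CPM). The rise was 1.33-fold, with a log2 fold change of 0.41 (SE 0.023, adjusted p = 2.27e-11 in edgeR). ELOVL6, which elongates palmitate to stearate, went from 47.4, 46.9 and 49.1 CPM to 60.7, 59.2 and 62.8 CPM. Its groups did not overlap either, in replicates or in libraries, and its log2 fold change was 0.35 (SE 0.035, adjusted p = 2.25e-07 in edgeR).

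SCD, the stearoyl-CoA desaturase that makes oleate, lay at 687, 697 and 708 CPM in scrambled cells and at 767, 759 and 783 CPM in knockdown cells. Every knockdown library exceeded every scrambled one for SCD, and the log2 fold change was 0.14 (SE 0.023, adjusted p = 0.000129 in edgeR). FASN, the fatty acid synthase, had scrambled values of 1628, 1613 and 1575 CPM and knockdown values of 1818, 1822 and 1660 CPM. Knockdown replicate 3 was the lowest of its group for FASN but still above the scrambled replicates. Its libraries 3_2 and 3_3 lay at 1606 and 1553 CPM, inside or below the scrambled range of 1558 to 1675 CPM, and the FASN transcript had a GC content of 65.3%. The log2 fold change of FASN was 0.14 (SE 0.028, adjusted p = 0.00149 in edgeR), 0.18 without those libraries and 0.11 after GC correction.

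FADS2, the delta-6 desaturase, went from 38.5, 35.7 and 37.3 CPM to 42.04, 42.9 and 37.6 CPM. Knockdown replicate 3 fell within the scrambled range of FADS2, and the log2 fold change was 0.14 (SE 0.045, adjusted p = 0.0349 in edgeR). ACLY, which supplies cytosolic acetyl-CoA from citrate, lay at 440.2, 435 and 432 CPM in scrambled and 463, 467 and 446 CPM in knockdown replicates, a separation of only a few CPM, with a log2 fold change of 0.07 (SE 0.025, adjusted p = 0.0383 in edgeR). Both calls were lost in 5 of the 6 fits with a replicate left out, all but the one without knockdown replicate 3, and that of ACLY also with no count filter. The adjusted p of FADS2 reached 0.196 and that of ACLY 0.182 over 16 alternatives. ACACA, the acetyl-CoA carboxylase that commits carbon to fatty acids, had a log2 fold change of 0.05 that did not pass (adjusted p = 0.127 in edgeR), though its 9 knockdown libraries (453 to 472 CPM) lay above its 9 scrambled ones (440.2 to 451 CPM). ACACA passed as raised under 6 of 16 alternatives, with 0.04 and an adjusted p of 0.00659 in edgeR without knockdown libraries 3_2 and 3_3.

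All 9 knockdown libraries lay above all 9 scrambled libraries in 5 members, FADS1, ELOVL6, SCD, ACACA and HMGCS1, against 2.76% of tested genes, and 0 members had all 9 below, against 2.36%. Summed over the 7 fatty acid genes, abundance rose from 3723 ± 20.2 to 4160 ± 84.8 CPM (SD, n = 3 per group), by 11.8%, with an exact two-sided permutation p of 0.1, the smallest that 3 against 3 samples allow. FASN carried a large part of that sum, and the other 6 genes went from 2117 ± 10.8 to 2394 ± 9.24 CPM (SD, n = 3). With or without FASN, every knockdown sum lay above every scrambled sum.

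**Figure D2:**
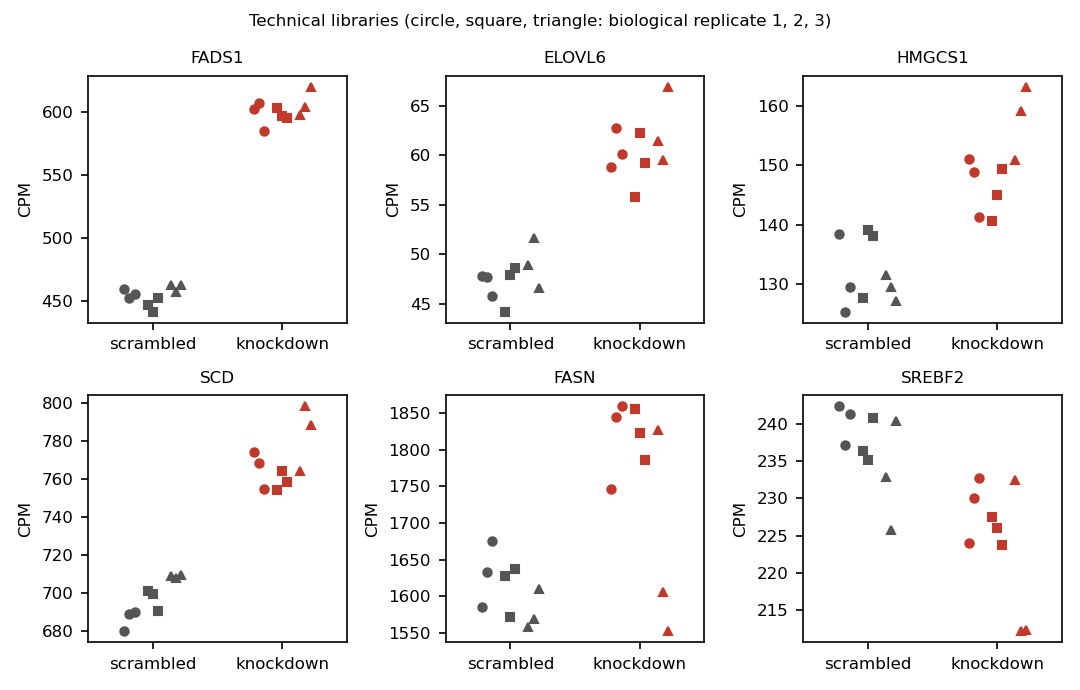
CPM in each of the 18 technical libraries for 6 genes, with marker shape giving the biological replicate. FADS1, ELOVL6, HMGCS1 and SCD show no overlap between groups, while for FASN knockdown library 3_2 (1606 CPM) lies among the scrambled values and 3_3 (1553 CPM) below them, and both lie lowest for SREBF2.

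As annotated, FADS1 lies within the span of FADS2 on chromosome 11 (GRCh38, GENCODE 29). FADS1 runs from 61799625 to 61829318 on the minus strand and FADS2 from 61792980 to 61867354 on the plus strand. Their exons share 490 bases on opposite strands, and the strand setting of the counting is not given in the sources used here, so reads of that stretch may be counted for either gene. FADS3, which lies in the same cluster and was taken from the list of fatty acid supply genes, also rose, from 69.6, 70.4 and 68.2 CPM to 83.1, 83.8 and 77.5 CPM (log2 fold change 0.23, SE 0.034, adjusted p = 5.06e-05 in edgeR). Of the 8 other tested genes within 100 kb of FADS1, FADS2 and FADS3 were called, where 11.1% of all genes rose. FEN1, a flap endonuclease gene, had a log2 fold change of 0.07 and TMEM258 of -0.01, and neither passed (adjusted p = 0.118 and 0.867). MYRF (0.09, adjusted p = 0.108), RAB3IL1 (0.08, adjusted p = 0.105) and DAGLA (0.87 at 0.204 CPM in scrambled cells, adjusted p = 0.0541) did not pass in edgeR either, nor did MIR6746 (-0.09). Values above 0 were seen in 6 of these 8 genes and in 7972 of all 15678 tested genes, and 8 genes are too few to set these shares apart.

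Among the mevalonate and isoprenoid genes 2 of 8 rose, both at the entry of the route, where 11.1% of all genes rose. HMGCS1, the cytosolic HMG-CoA synthase, went from 132, 135 and 129 CPM in scrambled replicates to 148, 145 and 158 CPM in knockdown replicates. Groups did not overlap for HMGCS1, replicate 3 of the knockdown was highest, and the log2 fold change was 0.19 (SE 0.033, adjusted p = 0.000318 in edgeR). ACAT2, the cytosolic thiolase that forms acetoacetyl-CoA, went from 93.7, 93.1 and 93.6 CPM to 102, 98.9 and 102 CPM (log2 fold change 0.11, SE 0.030, adjusted p = 0.0119 in edgeR). Its call was lost when any 1 scrambled replicate was left out, with an adjusted p of up to 0.0770. On the opposite strand ACAT2 shares 1458 exon bases with SOD2-OT1, 1141 with SOD2 and 397 with TCP1, whose log2 fold changes were -0.17, 0.01 and -0.06 and did not pass.

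The remaining mevalonate genes did not pass. IDI1, which isomerizes isopentenyl diphosphate, had a log2 fold change of 0.08 (adjusted p = 0.0703 in edgeR) and passed as raised under 7 of 16 alternatives, with 0.07 and an adjusted p of 0.0145 without knockdown libraries 3_2 and 3_3. Its overlapping antisense gene IDI2-AS1 was lower, at 1.39 against 0.947 CPM (log2 fold change -0.55, adjusted p = 0.00861 in edgeR). The kinase genes MVK and PMVK were at 0.04 and -0.12, the decarboxylase gene MVD at -0.02 (0.04 without knockdown libraries 3_2 and 3_3, adjusted p = 0.183 in edgeR), and FDPS, which makes farnesyl diphosphate, at 0.02. GGPS1, which makes geranylgeranyl diphosphate for protein prenylation, was at -0.07, and at -0.12 without those libraries, where it passed as lowered (adjusted p = 0.00391 in edgeR). It shares 1422 of its exon bases with TBCE on the same strand, and reads of FDPS and its 8 annotated pseudogenes may be divided by the counting. The 8 genes together summed to 615 ± 5.02 CPM in scrambled and 645 ± 9.66 CPM in knockdown cells (SD, n = 3), 4.84% higher with no overlap and exact permutation p = 0.1.

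On the sterol route, 4 of 11 genes rose, against 11.1% of all genes, and all 4 act after lanosterol has formed. TM7SF2, a sterol C14 reductase, went from 14.0, 13.6 and 12.9 CPM to 16.8, 16.6 and 15.8 CPM, without overlap (log2 fold change 0.28, SE 0.050, adjusted p = 0.000463 in edgeR). HSD17B7, which reduces the 3-keto group of sterol intermediates, went from 9.94, 10.6 and 9.49 CPM to 11.4, 12.03 and 12.1 CPM. Its replicates did not overlap and its log2 fold change was 0.24 (SE 0.057, adjusted p = 0.00474 in edgeR), but reads shared with its pseudogene copies, such as HSD17B7P2, make the level uncertain. MSMO1, the sterol C4 methyl oxidase, lay at 27.9, 27.9 and 28.5 CPM in scrambled and 30.8, 30.2 and 33.5 CPM in knockdown replicates, again with knockdown replicate 3 highest (log2 fold change 0.17, SE 0.042, adjusted p = 0.00767 in edgeR).

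CYP51A1, the lanosterol demethylase, rose least of these, from 117, 120 and 121 CPM to 126, 125 and 129 CPM (log2 fold change 0.09, SE 0.029, adjusted p = 0.0423 in edgeR). That call was lost in 6 of 16 alternatives, with an adjusted p of up to 0.208. CYP51A1 shares 2844 of its exon bases (79.35%) with AC000120.2 on the same strand, a gene absent from the deposited counts. It also has 3 annotated pseudogenes, so the counting of its reads is uncertain. The genes that make and close squalene did not pass. FDFT1, the squalene synthase, had a log2 fold change of 0.01 (approximate 95% interval -0.04 to 0.06). For SQLE, the squalene epoxidase, it was -0.01 (-0.07 to 0.04), and for LSS, the lanosterol synthase, 0.01 (-0.06 to 0.07). These intervals were taken from the SE and the normal distribution, and are somewhat too narrow for so few samples. SQLE, for example, lay at 191, 189 and 188 CPM in scrambled and 184, 186 and 195 CPM in knockdown replicates, which overlap. Later enzymes that did not pass were NSDHL (0.08), DHCR7 (0.07), EBP (0.04) and SC5D (-0.003). Of these, DHCR7 passed as raised under 7 of 16 alternatives, among them the fit without knockdown libraries 3_2 and 3_3 (0.08, adjusted p = 0.000697 in edgeR), NSDHL under 2 and EBP under 1. Summed CPM of the 11 genes was 939 ± 6.25 in scrambled and 965 ± 4.29 in knockdown cells (SD, n = 3), 2.74% higher without overlap (exact permutation p = 0.1).

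**Figure D3:**
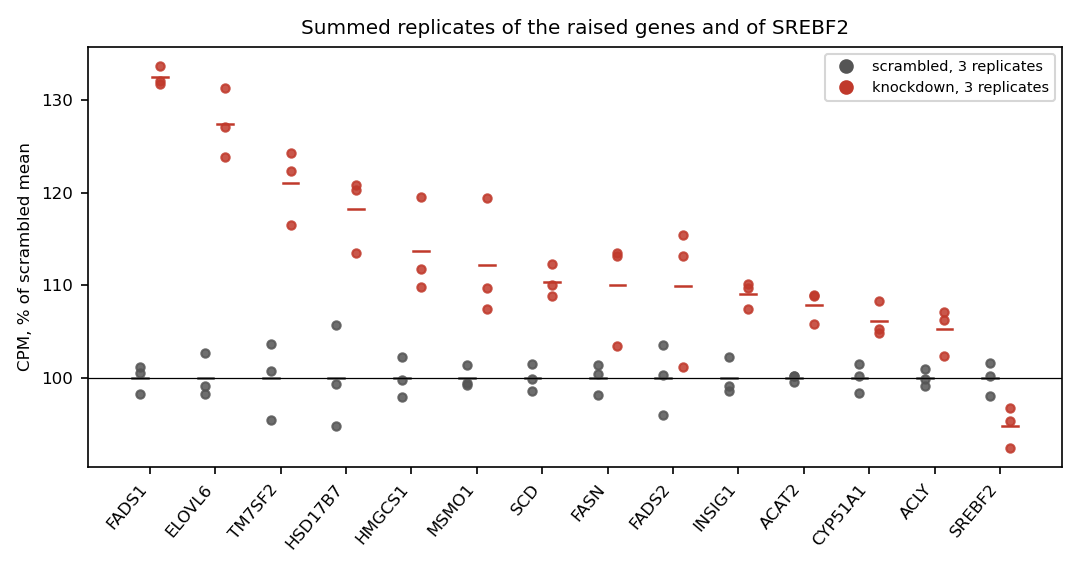
CPM of each summed replicate as a percentage of the scrambled mean, for the 13 raised genes and for SREBF2, with short lines at group means. Knockdown replicates lie above all scrambled replicates for every raised gene shown except FADS2, and below them for SREBF2.

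Genes of SREBP control did not share a direction. INSIG1, an SREBP target that retains SCAP, lay at 120, 121 and 124 CPM in scrambled and 131, 134 and 133 CPM in knockdown replicates. Groups were separate for INSIG1, and the log2 fold change was 0.13 (SE 0.029, adjusted p = 0.00396 in edgeR). SREBF2, the factor with the sterol regulatory element in the printed promoter, lay at 241, 237 and 232 CPM in scrambled and 229, 226 and 219 CPM in knockdown replicates. All knockdown replicates were below all scrambled ones, with a log2 fold change of -0.08 (SE 0.027) that did not pass the threshold in the main test (adjusted p = 0.0521 in edgeR). SREBF2 passed as lowered under 11 of 16 alternatives, with log2 fold changes over all 16 between -0.09 and -0.05. Without knockdown libraries 3_2 and 3_3 it was -0.05 and passed (adjusted p = 0.00973 in edgeR).

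SREBF1 had 166, 167 and 162 CPM in scrambled and 169, 174 and 158 CPM in knockdown replicates, which overlap, and a log2 fold change of 0.02 (adjusted p = 0.794 in edgeR). Without knockdown libraries 3_2 and 3_3 it was 0.05 and passed (adjusted p = 0.0193 in edgeR), and after GC correction it was -0.01 and did not (adjusted p = 0.65). SCAP, at 164, 160 and 157 CPM against 163, 167 and 155 CPM, overlapped as well, with a log2 fold change of 0.01. INSIG2, the less abundant INSIG gene here, lay at 7.09, 6.36 and 7.51 CPM against 7.15, 8.01 and 7.98 CPM, and its 0.14 did not pass (SE 0.071, adjusted p = 0.179 in edgeR). Summed CPM of the 5 genes was 691 ± 7.70 against 694 ± 18.3 (SD, n = 3), with exact permutation p = 0.8.

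None of the 3 transport and LXR genes passed in edgeR or DESeq2, and 1, STARD4, had an unadjusted p below 0.05 in edgeR. STARD4, a soluble sterol carrier, lay at 32.9, 36.9 and 38.4 CPM in scrambled and 38.2, 38.5 and 42.2 CPM in knockdown replicates, with knockdown replicate 1 inside the scrambled range (log2 fold change 0.14, adjusted p = 0.0527 in edgeR). It passed as raised under 10 of 16 alternatives, with 0.10 and an adjusted p of 0.0341 without knockdown libraries 3_2 and 3_3. MYLIP, a ubiquitin ligase that limits lipoprotein uptake and an LXR target, was at -0.03 with an SE of 0.030. ABCA1, the cholesterol exporter and LXR target, had 9 to 14 counts per summed sample, so a change of its level was not detectable at this depth (log2 fold change 0.31, SE 0.367).

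Per kilobase of annotated exon, the 4 members with the highest levels were fatty acid genes. In scrambled cells FASN lay at 171 CPM per kb, above 99.0% of tested genes, SCD at 130 CPM per kb, ACLY at 83.6 CPM per kb and FADS1 at 44.4 CPM per kb. SQLE led the sterol route with 44.1 CPM per kb, and FDPS led the mevalonate genes with 39.5 CPM per kb. The other fatty acid genes were lower, ACACA at 34.2, ELOVL6 at 6.55 and FADS2 at 3.37 CPM per kb, and ABCA1 was lowest at 0.0132 CPM per kb. Lengths cover all annotated exons, including ones K562 may not use. Raised members were spread over this range, from 2.09 CPM per kb for HSD17B7 to 171 for FASN. Among the 9899 tested genes between the lowest and highest scrambled CPM of the members (ABCA1 left out), 11.6% rose and 10.0% fell, where 11.1% and 7.49% of all genes did.

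Calls were compared over 16 alternative fits. These fits are not independent of each other, and the fit with libraries entered singly treats technical libraries as if they were biological replicates. Of the 13 raised genes, 9 were raised in all 16: FADS1, ELOVL6, TM7SF2, HSD17B7, HMGCS1, MSMO1, SCD, FASN and INSIG1. The share of all tested genes raised in all 16 is not given here, so this count has no background beside it. FADS1 varied little, between 0.39 and 0.41 on the log2 scale, and ELOVL6 between 0.33 and 0.37. DESeq2 and RLE scaling each gave 13 raised and 1 lowered, and the latter called 10.8% and 8.18% of all genes. Upper-quartile scaling gave 14 and 0, against 11.7% and 6.72%, and the fit with no count filter 12 and 1, against 7.71% and 5.74%. A replicate block gave 16 and 1, against 14.1% and 11.3%.

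SREBF2 accounted for the lowered call in each of those fits that had 1, and also when the 18 libraries entered singly (17 raised and 1 lowered, against 15.5% and 14.7%) and with limma-voom (17 and 1, against 11.9% and 10.3%). Leaving out scrambled replicates 1, 2 and 3 in turn gave 9, 9 and 10 raised members and 0 lowered, against 7.09%, 7.49% and 7.78% of all genes raised and 3.95%, 3.92% and 4.63% lowered. Leaving out knockdown replicate 1 gave 11 raised and 1 lowered, SREBF2 again (9.15% and 6.44%), replicate 2 gave 10 and 0 (7.88% and 5.06%), and replicate 3 gave 18 and 2, SREBF2 and GGPS1 (15.6% and 14.3%). The members' raised share was above the background share in each of these fits. Without knockdown libraries 3_2 and 3_3, 18 members rose and 2 fell (SREBF2 and GGPS1), where 16.5% and 15.5% of all genes did. With GC correction the counts were 18 and 2 (SREBF2 and PMVK), against 14.8% and 16.7%, and with the replicate block added they were 18 and 1, against 14.8% and 16.8%.

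**Figure D4:**
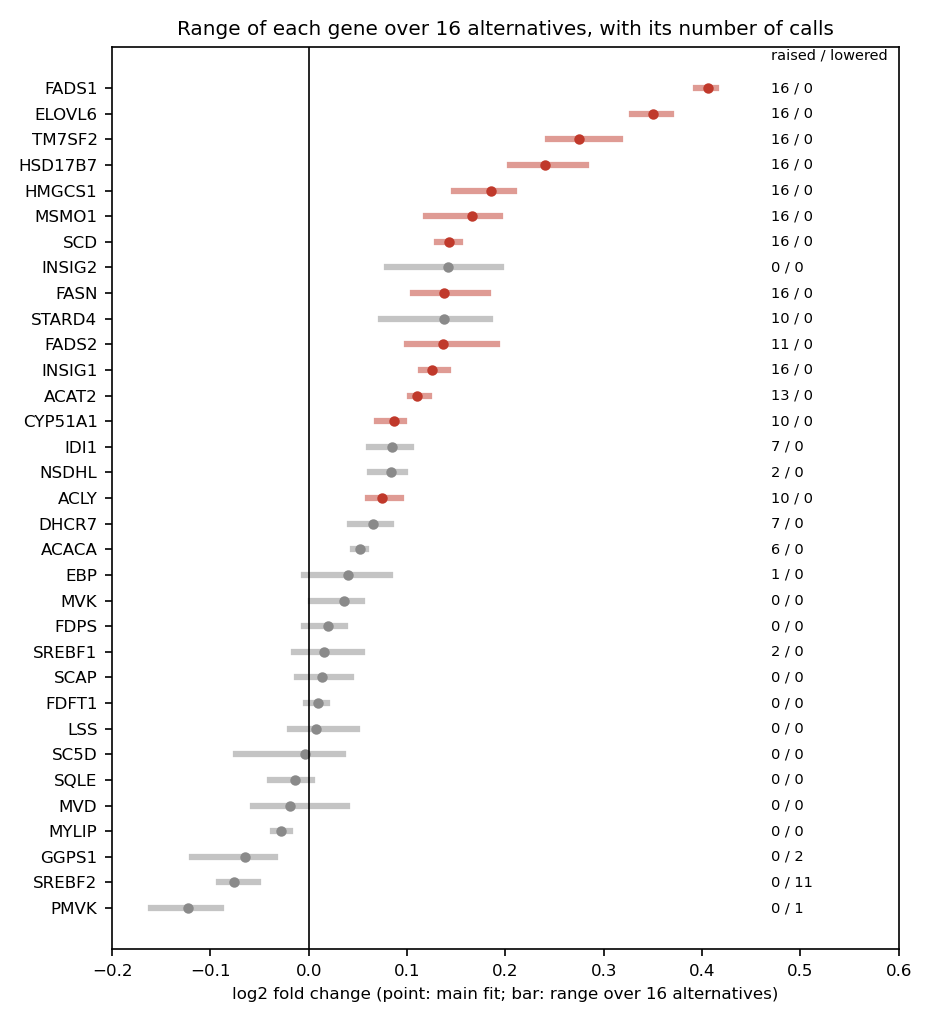
Log2 fold change of each gene in the main fit (point) and its range over 16 alternatives (bar), ABCA1 left out, with the number of alternatives that called it raised or lowered at the right. The 9 genes called raised in all 16 have bars that start at 0.11 or higher, and SREBF2 was lowered in 11.

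Related genes outside the set were examined as 7 lists. Fatty acid supply, elongation and activation genes had 8 of 23 tested members raised and 0 lowered, against 11.1% and 7.49% of all genes, with a list median of 0.04; 1 was lower at an unadjusted p below 0.05 and DESeq2 lowered 0. Besides FADS3, SLC25A1, the mitochondrial citrate carrier, went from 227, 224 and 227 CPM to 268, 269 and 241 CPM, and ELOVL7, an elongase gene, from 7.74, 7.92 and 9.01 CPM to 10.4, 10.4 and 11.3 CPM. Neither overlapped between groups, and their log2 fold changes were 0.20 (SE 0.033, adjusted p = 0.00019) and 0.38 (SE 0.065, adjusted p = 0.000209) in edgeR.

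Mitochondrial fatty acid oxidation had 2 of 15 raised (13.3%) and 1 lowered, near the 11.1% and 7.49% of all genes, with a median of 0.004. CPT1A, the carnitine palmitoyltransferase that admits fatty acids to mitochondria, went from 35.4, 35.3 and 35.2 CPM to 44.4, 45.2 and 43.8 CPM, a clear separation, with a log2 fold change of 0.33 (SE 0.035, adjusted p = 4.87e-07 in edgeR). CPT2, its partner in the inner membrane, was at 0.14 (adjusted p = 0.0231) and ECI1, an enoyl-CoA isomerase, at -0.13 (adjusted p = 0.0328). Glycerolipid synthesis had 1 of 12 raised (8.33%, also near the share of all genes), AGPAT1 at 0.10 (adjusted p = 0.0207), and 0 lowered by edgeR or DESeq2, with 1 lower at an unadjusted p below 0.05.

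The lists closer to sterol control had 0 to 2 members called in each direction by edgeR, where 11.1% of all genes rose and 7.49% fell. SREBP processing and sterol-regulated degradation had 1 raised and 2 lowered of 17 in edgeR. DESeq2 called 0 raised and 3 lowered, against 8.9% and 7.18% of all genes. At an unadjusted p below 0.05 in edgeR, 1 was higher and 5 were lower. The shares of all genes at that threshold are not given here, so such counts in this and the other lists have no background. Called genes included ERLIN1, an endoplasmic reticulum prohibitin-family gene, at -0.15 (adjusted p = 0.00933) and MBTPS2, the site-2 protease that cleaves SREBPs, at 0.12 (adjusted p = 0.0479 in edgeR). Sterol transport, esterification and uptake had 1 of 13 raised, SCARB1, a scavenger receptor for lipoproteins, at 0.14 (adjusted p = 0.00136), and 0 lowered by edgeR or DESeq2, with 1 lower at an unadjusted p below 0.05. Non-sterol isoprenoid branches had 1 of 13 lowered, RABGGTB, a subunit of the enzyme that prenylates RAB proteins, at -0.10 (adjusted p = 0.0262). LXR receptors, partners and targets had 0 of 7 called in either direction by edgeR or DESeq2 and 0 at an unadjusted p below 0.05, with a list median of 0.06.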

How the data were processed

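Trim Galore, STAR, featureCounts and the build GRCh38 are named in the submitters' processing notes. For their versions, the annotation and the strand setting, no source used here gives a value. The authors deposited raw counts per gene symbol, whole numbers in 18 library columns.

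Technical libraries were summed to 3 against 3 samples and tested by quasi-likelihood in edgeR 4.0.16 under R 4.3.3. Low counts were removed by filterByExpr, scaling was TMM, the fit was robust, and p-values were adjusted over 15678 genes by Benjamini-Hochberg, calling at an adjusted p below 0.05. CPM used TMM-scaled library sizes. GC content, exon lengths and gene positions came from GENCODE 29 (GC for 96.4% of tested genes), and promoters from RefSeq. Alternatives used DESeq2 1.42.0, limma 3.58.1 (voom), RLE and upper-quartile scaling, no count filter, single libraries, a replicate block, GC correction (lowess, span 0.3) and each replicate left out. Leaving out knockdown libraries 3_2 and 3_3, and the motifs, were chosen after seeing the data. The fit was tested on simulated data, where it called 82.0% of 50 rises of 1.2-fold and 64.6% of 48 falls to 0.8333-fold. Of the unchanged genes it called 0.0717%. Smaller changes, such as those of most raised members, were not simulated.

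The members and lists were chosen with earlier results of these data known. All members are named; from each other list at most 3 called genes by smallest p, or otherwise the gene with the smallest p, except that some genes are not reported here. Neighbours and overlapping genes were named after their values were seen.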

Additional observations from a re-analysis of the deposited data

Results flagged for a closer look

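Each member's 9 libraries per group were checked for a library far from the others, in 68 combinations of gene and group, where chance flags about 1 in 20. GGPS1 lay at 37.2 CPM in scrambled library 3_1, above the other 8 scrambled libraries at 32.3 to 34.8 CPM. INSIG2 lay at 5.64 CPM in knockdown library 1_3, below the other 8 knockdown libraries at 7.50 to 8.27 CPM.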

How the results depend on the processing

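The count of raised members stayed within 1.5 times of 13 under all 16 alternatives, from 9 to 18. With a replicate left out it ran from 9 to 18 and the count of lowered members from 0 to 2. Lowered members numbered 0 in the main fit, 1 with DESeq2, RLE scaling, no count filter, single libraries, limma-voom, the replicate block, and the replicate block with GC correction, and 2 with GC correction alone or without knockdown libraries 3_2 and 3_3. The replicate block gave 16 raised members. Deviations of samples with the same replicate number correlated at 0.0302, 0.0114 and 0.0113, so the numbers were not taken as pairs. The median log2 fold change of the members, 0.08 in the main fit, was 0.0846 with upper-quartile scaling, 0.0705 with single libraries, 0.0697 without knockdown libraries 3_2 and 3_3, and 0.0714 to 0.0818 with a replicate left out. Of 543 values of single members under alternatives, 49 passed the threshold where the main value did not, 20 lost it and 0 called values changed sign. Sums by role kept their sign under RLE and upper-quartile scaling. Depth limited ABCA1.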
